A study of Mus musculus with 8 samples.

Results

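Autophagy genes were followed in microglia, the macrophages that live in the brain tissue, of mice lacking multifunctional protein-2 (MFP2), an enzyme of peroxisomal fatty acid beta-oxidation encoded by Hsd17b4. The set held every gene whose symbol starts with Atg and a digit and 23 further genes of the pathway. Of those 23, 22 were measured as genes with a probe set of their own, Optn was not analysed here, and with 18 Atg genes the set came to 40 of the 19938 genes tested. The rule picks genes by name and by no measured value, although the set was proposed with earlier results of these data known. Within a gene it takes the brightest probe set by the mean over all 8 arrays, which is a measured value. Of the 40 genes, 6 had more than 1 probe set.

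The study compared 4 MFP2 knockout with 4 control (wild type) arrays, each from CD11b-high, CD45-intermediate cells sorted from whole brain. Both groups were Swiss Webster mice of 17 weeks labelled female, and MFP2 genotype is the only difference the labels give. The sources used here do not say how the knockout allele was made. The labels number the replicates and do not say whether each came from its own animal, which means that the p-values reflect only how far these samples differ, a spread that may be technical.

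Autophagy encloses cytoplasm in a double membrane, the autophagosome, and delivers it to the lysosome. A kinase complex around ULK1 starts the process, a lipid kinase complex marks the growing membrane, 2 ubiquitin-like conjugation systems attach proteins of the ATG8 family to it, and cargo receptors tie selected cargo to those ATG8 proteins. Microglia use the same machinery to break down their own organelles, and parts of it also act on the vesicles that hold engulfed material. The arrays measure transcript levels, and say nothing on the flow of material through the pathway.

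Hsd17b4 lay between 7.82 and 9.09 on the log2 scale in controls and between 4.76 and 7.20 in knockouts, with knockout 2 at the upper end of its group. Control 1 was at odds with its female label, with Xist at 6.80 against 10.82 to 10.99 in the other controls and Eif2s3y, a Y-linked gene, at 8.14 against 2.78 to 2.99. Of 9 measured microglial markers 6 were lower in knockouts, although their summed level stayed high, at 14.51 to 14.72 against 14.99 to 15.17 in controls. Among markers of other cells, 8 neutrophil genes had none called, also none at an unadjusted p of 0.05 or by a plain two-sample test, with summed levels of 11.60 to 14.35 in controls and 12.88 to 13.69 in knockouts. Of 9 border macrophage genes 5 were lower and 1 higher, and their summed level ran from 10.34 to 10.90 in controls and from 9.47 to 10.05 in knockouts. Of 5 endothelial genes 1 was higher, Flt1, and the other 4 had changes below 0, with summed levels of 7.71 to 8.08 and 8.27 to 8.98. Of 5 astrocyte genes 2 were higher, and their summed levels overlapped, at 9.23 to 9.52 in controls and 9.46 to 9.62 in knockouts. Of 5 oligodendrocyte genes 1 was higher, with 3 changes above 0, 2 below, and summed levels of 8.66 to 8.82 and 8.87 to 9.03. Of 4 monocyte genes 1 was lower, with summed levels of 8.38 to 9.19 and 8.09 to 9.53. For 6 neuronal genes limma and the plain test called 0, with 1 at an unadjusted p under 0.05 and summed levels of 8.00 to 8.19 and 8.09 to 8.28. For 8 lymphocyte and NK cell genes the counts were the same and all 8 changes lay above 0, with summed levels of 9.08 to 9.60 and 9.46 to 9.74. The part of these markers in the results below was not tested, and in sorted bulk samples fewer cells of a type and less RNA per cell cannot be told apart.

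The upper end of the knockout arrays was brighter than that of the control arrays. The value below which 99% of an array's probe sets lay was 11.40 to 11.62 in controls and 11.86 to 12.02 in knockouts, while the value at 95% was 9.81 to 9.89 and 9.83 to 9.99. Of the 40 genes only Gabarap had values above 11 in these arrays.

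The promoters of 3 ATG8 genes are shown because they cover the gene with the largest change of the 40, Gabarapl1, and its closest relatives, and that of Atg3 because it carries a pair of matches to the E-box core bound by TFEB, a transcription factor known to drive lysosomal and autophagy genes. Each run is the 250 bases before the gene's start in RefSeq (GRCm38.p6), printed 5′ to 3′ along the gene, with matches on either strand to CACGTG (E-box), GGGCGG (GC box) or CCAAT in capitals.
Gabarapl1, chr6:129532942-129533191, plus strand: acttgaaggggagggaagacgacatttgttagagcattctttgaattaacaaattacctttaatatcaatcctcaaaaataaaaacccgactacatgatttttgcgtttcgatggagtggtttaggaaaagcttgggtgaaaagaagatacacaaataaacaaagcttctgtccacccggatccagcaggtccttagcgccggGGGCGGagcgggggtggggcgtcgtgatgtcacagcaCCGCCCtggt
Gabarap, chr11:69991120-69991369, plus strand: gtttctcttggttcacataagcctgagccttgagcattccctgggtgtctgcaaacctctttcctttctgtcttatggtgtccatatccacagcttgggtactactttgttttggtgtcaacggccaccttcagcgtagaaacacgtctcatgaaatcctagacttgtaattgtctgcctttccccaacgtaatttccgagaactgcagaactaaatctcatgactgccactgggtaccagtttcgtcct
Gabarapl2, chr8:111940453-111940702, plus strand: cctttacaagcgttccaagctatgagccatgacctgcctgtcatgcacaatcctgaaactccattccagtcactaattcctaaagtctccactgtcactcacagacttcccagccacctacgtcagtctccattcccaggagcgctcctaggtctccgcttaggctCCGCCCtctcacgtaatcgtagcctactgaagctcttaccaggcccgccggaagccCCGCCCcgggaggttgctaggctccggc
Atg3, chr16:45158579-45158828, plus strand: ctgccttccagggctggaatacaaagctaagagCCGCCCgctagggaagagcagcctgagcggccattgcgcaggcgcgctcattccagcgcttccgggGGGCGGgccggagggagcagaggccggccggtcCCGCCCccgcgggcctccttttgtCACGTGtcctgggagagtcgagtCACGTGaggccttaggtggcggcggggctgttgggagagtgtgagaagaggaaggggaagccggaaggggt
None of the 3 ATG8 promoters held CACGTG in this window. Gabarapl1 held the GC box at 2 places, 47 and 10 bases before the start, and Gabarapl2 also at 2, 84 and 28 bases before it. Gabarap held none of the 3 motifs. Atg3 held CACGTG at 94 and 71 bases before the start and the GC box at 3 places. No match of a motif overlapped a match of another. A match is a run of letters and not a known binding site.

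RefSeq promoters were found for 31 of the 40 genes, 35 promoters in all. The 9 genes without one, whose promoters were not read, included the called genes Map1lc3a and Rb1cc1. CACGTG was present in 3 of the 35 (8.57%), those of Atg3, Atg5 and Atg7, and in 6.02% of the 32851 mouse promoters of the same length. The GC box was present in 18 of 35 (51.4%) against 32.7% of all, and CCAAT in 10 of 35 (28.6%) against 33.9% of all. The 3 genes with CACGTG were not called in knockout microglia. Their log2 changes were -0.06 for Atg3, 0.08 for Atg5 and 0.31 for Atg7.

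Most of the autophagy genes did not pass the test in MFP2-deficient microglia, and the 5 that did moved by less than 1.5-fold. Gabarapl1, Map1lc3a and Gabarap of the ATG8 family and the protease gene Atg4a were higher, and Rb1cc1, a scaffold of the ULK1 complex, was lower. Gabarap was not higher once the arrays were given equal distributions, and the probe set of Atg4a may read another copy of the gene. These 5 genes are 12.5% of the 40, and over all genes tested 9.55% were called, 5.38% higher and 4.17% lower, so the share is near that of the whole transcriptome. The median log2 change of the 40 genes was -0.04, with a range of -0.44 to 0.51, and that of all genes was -0.02. A change was called with limma at a Benjamini-Hochberg adjusted p under 0.05 over all 19938 genes, with 4 arrays a group. Unadjusted p was under 0.05 for 12 of the 40 genes, 30.0%, against 21% of all genes. For 7 of the 40 no knockout fell within the control range, 17.5% against 14% of all genes; 5 had every knockout higher, which 7.09% of all genes had, and 2 every knockout lower, which 6.92% had. For 28 of the 35 genes not called, the 95% interval of the log2 change lay within 0.5 on either side of 0.

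**Figure D1:**
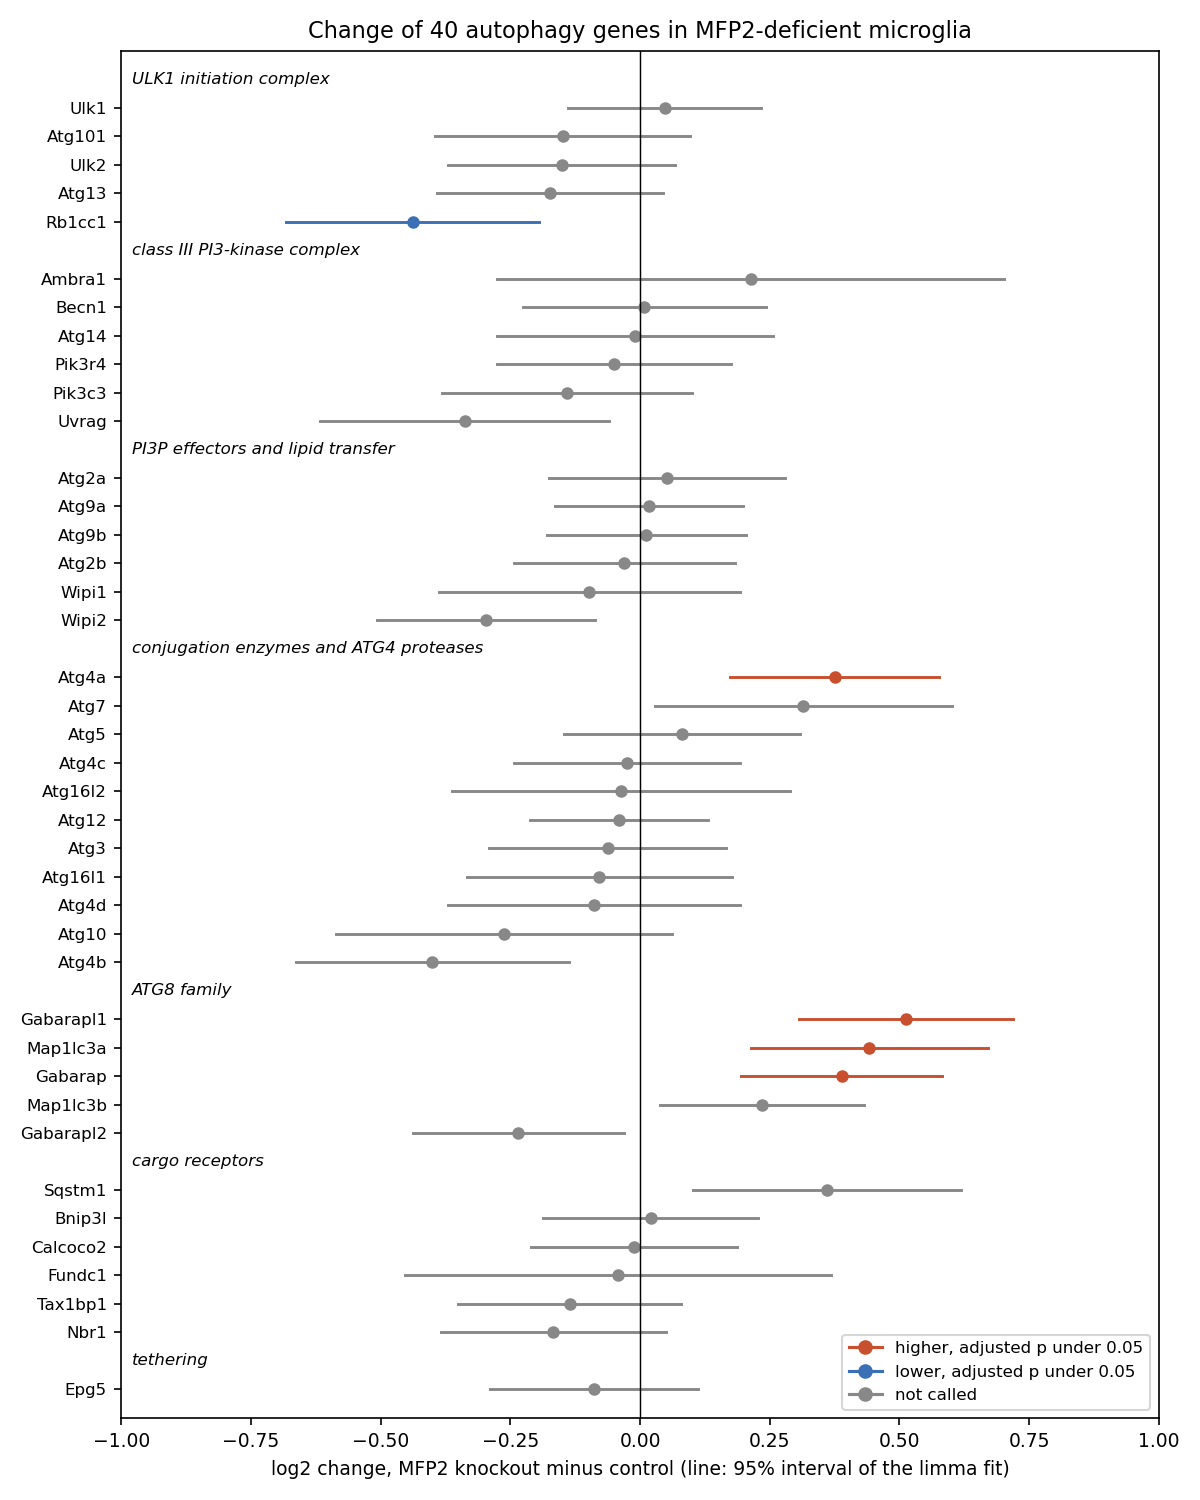
Log2 change of each of the 40 autophagy genes, MFP2 knockout minus control, grouped by role, with points for the estimate and lines for the 95% interval of the limma fit; red is called higher, blue called lower and grey not called. The coloured points are Gabarapl1 (0.51), Map1lc3a (0.44), Gabarap (0.39) and Atg4a (0.38) to the right of 0 and Rb1cc1 (-0.44) to the left.

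The complex that starts autophagy had 1 called gene of 5, and over all genes 9.55% were called. Rb1cc1, which encodes FIP200, the scaffold that holds the ULK1 kinase complex together, had log2 values of 8.17, 8.45, 8.01 and 8.19 in controls 1 to 4 and 7.95, 7.57, 7.76 and 7.78 in knockouts 1 to 4. Every knockout was below every control, although only 0.061 (log2) separated control 3 from knockout 1. The log2 change was -0.44 ± 0.11 (SE), a 1.36-fold lower level with an adjusted p of 0.0272. It missed the threshold when any of controls 1, 2 and 4 and knockouts 2, 3 and 4 was left out (adjusted p = 0.0592, 0.0757, 0.0638, 0.0732, 0.0703 and 0.0564 in that order), without control 1, control 3 and knockout 2 together (0.0734), and with arrays centred on their medians (0.0509).

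The other 4 genes of the complex were not called. The kinase gene Ulk1 had group means of 7.54 ± 0.042 (SD) in controls and 7.59 ± 0.11 in knockouts, and its relative Ulk2 9.25 ± 0.18 and 9.09 ± 0.057. Atg13 and Atg101, the regulatory subunits, had changes of -0.17 (95% interval -0.39 to 0.045) and -0.15 (-0.39 to 0.096).

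None of the 6 genes of the class III PI3-kinase complex, which makes the lipid PI3P on the forming membrane, was called by limma or by a plain two-sample test, and 1 had an unadjusted p under 0.05 in limma. That gene was Uvrag, a subunit that sends the complex to endosomes and maturing autophagosomes. Its values were 9.28, 9.30, 8.76 and 9.15 in controls and 8.86, 8.77, 8.57 and 8.93 in knockouts. Control 3 lay among the knockouts and the other 3 controls above all of them. The change of -0.34 ± 0.13 (SE) had an adjusted p of 0.138, and without control 3 it was -0.46 with an adjusted p of 0.0212.

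Pik3c3, the catalytic subunit VPS34, had the next lowest p. It was at 8.26, 8.16, 7.81 and 8.12 in controls and at 7.97, 8.11, 7.90 and 7.81 in knockouts, so the groups overlapped (change -0.14 ± 0.11, adjusted p = 0.550). Becn1, encoding the scaffold Beclin 1, was at 7.59 ± 0.14 (SD) in controls and 7.60 ± 0.17 in knockouts, a change of 0.0080 with a 95% interval of -0.23 to 0.24. Atg14, which directs the complex to autophagosome formation, and Pik3r4, its regulatory subunit VPS15, had changes of -0.010 and -0.051. Ambra1, an activator of the complex, spread widely in both groups, from 8.04 to 9.09 in controls and from 8.28 to 9.18 in knockouts, and its interval of -0.28 to 0.70 was the widest of the 40.

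Of the 6 genes that read PI3P or supply lipid to the growing membrane, none was called by limma or by a plain two-sample test, and 1 had an unadjusted p under 0.05. Wipi2, which binds PI3P and recruits ATG16L1, had values of 7.89, 7.87, 7.65 and 7.75 in controls and 7.56, 7.42, 7.64 and 7.35 in knockouts. The groups did not overlap, but control 3 and knockout 3 were nearly equal. The change of -0.30 ± 0.097 (SE) had an adjusted p of 0.0811, and 0.0469 after quantile normalization. Wipi1, its relative, had values of 6.49, 7.004, 6.63 and 6.84 in controls and 6.68, 6.33, 6.75 and 6.82 in knockouts, which overlapped. The lipid transfer genes Atg2a and Atg2b had changes of 0.051 and -0.030, and the scramblase genes Atg9a and Atg9b changes of 0.017 and 0.012, with none of the 4 intervals reaching beyond 0.28 on either side of 0.

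The conjugation enzymes attach ATG8 proteins to lipid, and the ATG4 proteases trim ATG8 proteins before that step and release them afterwards. Of 11 such genes 1 was higher and none lower, 9.09% called against 9.55% of all genes. An unadjusted p under 0.05 was found for 3, 27.3% against 21% of all genes, and none was called by a plain two-sample test. Atg4a had values of 6.66, 6.74, 6.55 and 6.54 in controls and 6.86, 6.97, 6.99 and 7.16 in knockouts. Every knockout exceeded every control, and the log2 change was 0.38 ± 0.093 (SE), about 1.3-fold, with an adjusted p of 0.0226. The call was lost when any of controls 1, 3 and 4 and knockouts 3 and 4 was left out (adjusted p = 0.0529, 0.0533, 0.0703, 0.0611 and 0.0646 in that order), without control 3 and knockout 2 together (0.0883), and without these and control 1 (0.205). A second probe set annotated to Atg4a changed by 0.27 and did not pass (adjusted p = 0.114 over all probe sets). RefSeq also lists a pseudogene, Atg4a-ps, and the sources used here do not say which copy each probe set reads. For the 34 genes with 1 probe set, probe set numbers run by chromosome. In that order the called probe set falls between genes on chromosomes 2 and 4. The second falls nearest Fundc1, which like Atg4a is on the X chromosome. Whether the called probe set reads Atg4a or another copy was not tested.

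Atg4b, the protease with the broadest activity on ATG8 proteins, had a change of the opposite sign that did not pass. It was at 6.48, 6.99, 6.85 and 6.79 in controls and 6.18, 6.49, 6.53 and 6.32 in knockouts. Control 1 lay among the knockouts, and the other 3 controls above all of them. The change of -0.40 ± 0.12 (SE) had an adjusted p of 0.0589, and 0.0218 without control 1. The proteases Atg4c and Atg4d had changes of -0.025 and -0.089.

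Atg7, the E1-like enzyme of both conjugation systems, had a change of 0.31 ± 0.13 (SE, adjusted p = 0.187) and overlapping groups. Its E2-like partners Atg3 and Atg10 had changes of -0.06 and -0.26, neither called. Atg5 (0.08), Atg12 (-0.041), Atg16l1 (-0.08) and Atg16l2 (-0.037), which form the complex that places ATG8 proteins on the membrane or, for the last, resemble a part of it, were not called. Atg12 was nearly constant, at 7.91 ± 0.0077 (SD) in controls and 7.87 ± 0.068 in knockouts.

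In the ATG8 family, the small ubiquitin-like proteins that coat the autophagosome membrane, 3 of 5 genes were higher and none lower in the deposited values. Over all genes 9.55% were called. After quantile normalization Gabarap was not called and its direction turned. A second probe set of Gabarapl2 was called lower. All 5 had an unadjusted p under 0.05, against 21% of all genes, and 2, Gabarapl1 and Gabarap, were called by a plain two-sample test. For 4 of the 5, Gabarap among them, all knockouts lay above all controls, against 7.09% of all genes. Leaving out control 3 and knockout 2 also gave 3 higher genes, and leaving out control 1 alone or knockout 3 alone gave 1. Without control 1, control 3 and knockout 2, which left 2 controls and 3 knockouts, limma called 0 higher.

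Gabarapl1, a GABARAP-type member, had the largest change of the 40 genes. Its log2 values were 6.79, 6.88, 6.67 and 6.59 in controls 1 to 4 and 7.20, 7.13, 7.29 and 7.36 in knockouts 1 to 4. The lowest knockout stood 0.25 above the highest control, and the change was 0.51 ± 0.095 (SE), or 1.43-fold, with an adjusted p of 0.00459. It stayed called without any single array (adjusted p = 0.00613 to 0.0179) and under every scaling tried. It missed the threshold without control 1, control 3 and knockout 2 together (adjusted p = 0.0508).

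Map1lc3a, which encodes LC3A, was at 6.89, 7.11, 7.27 and 7.25 in controls and 7.48, 7.47, 7.70 and 7.64 in knockouts. Control 1 was the lowest array, and no knockout fell within the range of the controls. The change was 0.44 ± 0.10 (SE), 1.36-fold, with an adjusted p of 0.0188. Leaving out control 1, control 2, knockout 3 or knockout 4 raised the adjusted p to 0.0595, 0.0514, 0.0669 and 0.0511, above the threshold.

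Gabarap, the founding GABARAP-type member, was at 11.20, 11.35, 11.41 and 11.23 in controls and 11.61, 11.61, 11.79 and 11.74 in knockouts. Every knockout was above every control in these values, with a change of 0.39 ± 0.089 (SE), 1.31-fold, and an adjusted p of 0.0154. Its place within each array moved the other way. The share of an array's probe sets at or below Gabarap was 98.63% to 98.78% in controls and 98.50% to 98.57% in knockouts, lower in every knockout than in every control. After quantile normalization the change was -0.074 (adjusted p = 0.602) and after cyclic loess 0.11 (adjusted p = 0.408), so neither its direction nor its call held across scalings. Leaving out control 1, control 4 or knockout 3 also left it not called, with adjusted p of 0.0569, 0.0505 and 0.0586.

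**Figure D2:**
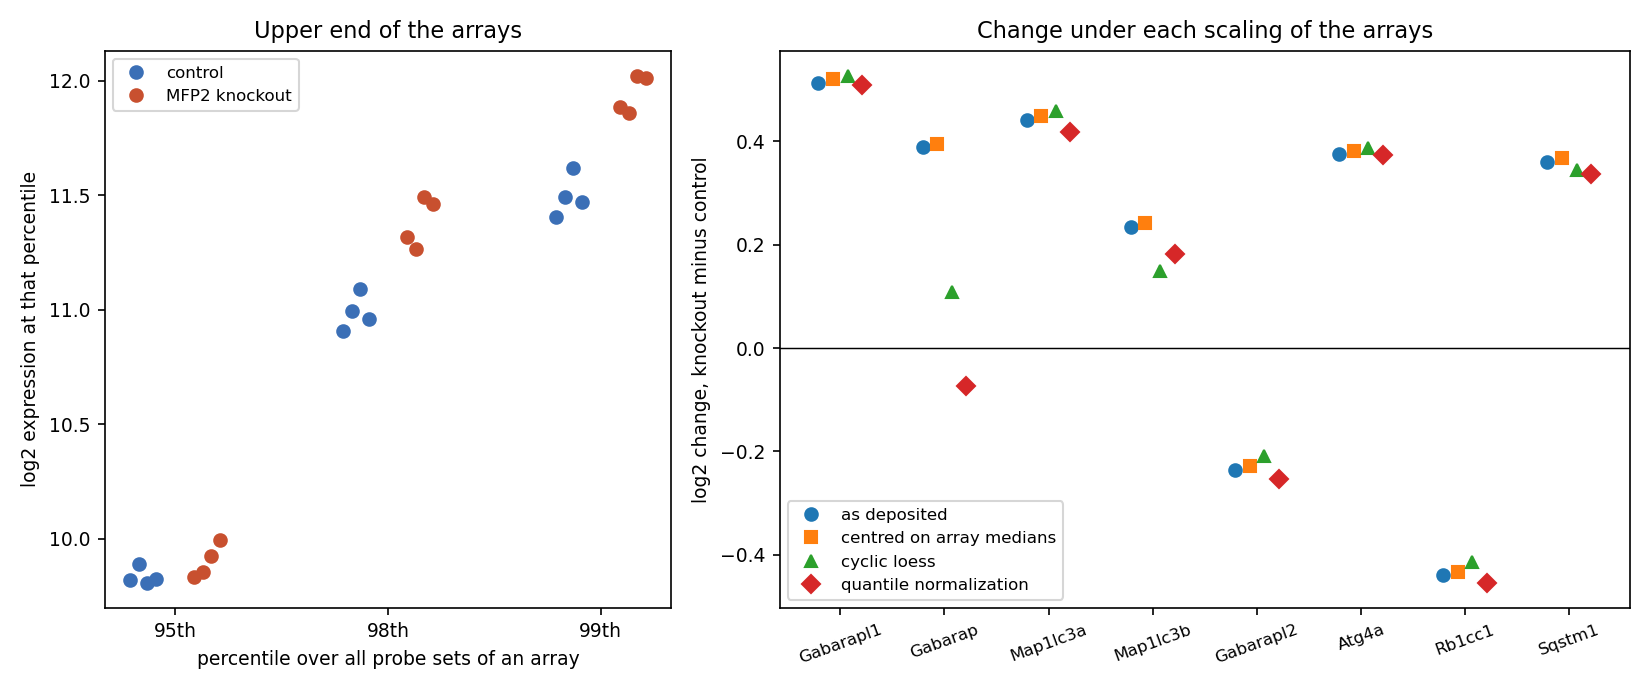
Left, the log2 expression value at the 95th, 98th and 99th percentile of all probe sets in each array, controls in blue and knockouts in red; right, the log2 change of 8 genes, knockout minus control, as deposited and under 3 further scalings of the arrays. The knockout arrays lie higher at the 98th and 99th percentiles, and Gabarap is the gene of the 8 whose change goes from 0.39 to -0.074, while Gabarapl1 stays between 0.51 and 0.53.

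Map1lc3b encodes LC3B, the member most used as a marker of autophagosomes. It was at 9.45, 9.54, 9.41 and 9.32 in controls and 9.59, 9.82, 9.63 and 9.62 in knockouts. The groups did not overlap, and knockout 2 stood apart above the other knockouts. The change of 0.24 ± 0.090 (SE) was not called (adjusted p = 0.143). A second probe set annotated to Map1lc3b had a change of 0.34 and an adjusted p of 0.0532 over all probe sets.

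Gabarapl2 encodes GATE-16. Its values were 8.52, 8.42, 8.27 and 8.58 in controls and 8.09, 8.28, 8.24 and 8.24 in knockouts. Control 3 and knockout 2 were nearly equal, and the change of -0.23 ± 0.094 (SE) was not called (adjusted p = 0.162). A second probe set annotated to this gene was at 6.99, 7.14, 6.86 and 7.01 in controls and 6.76, 6.78, 6.33 and 6.44 in knockouts. There the groups did not overlap, the change was -0.42 ± 0.12 (SE), and the adjusted p over all probe sets was 0.0396. With the mean of both probe sets the gene was called lower, at -0.33 and an adjusted p of 0.042. Which locus each probe set of Gabarapl2 or Map1lc3b reads is not stated in the sources, so the call for Gabarapl2 stays uncertain. By the order of probe set numbers described for Atg4a, the brighter Gabarapl2 probe set falls among chromosome 5 genes. The second falls between genes on chromosomes 7 and 9, and Gabarapl2 is on chromosome 8. For Map1lc3b, also on chromosome 8, the brighter falls there too and the second next to Atg14 on chromosome 14. The difference between Gabarapl2 and the other members was not tested.

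**Figure D3:**
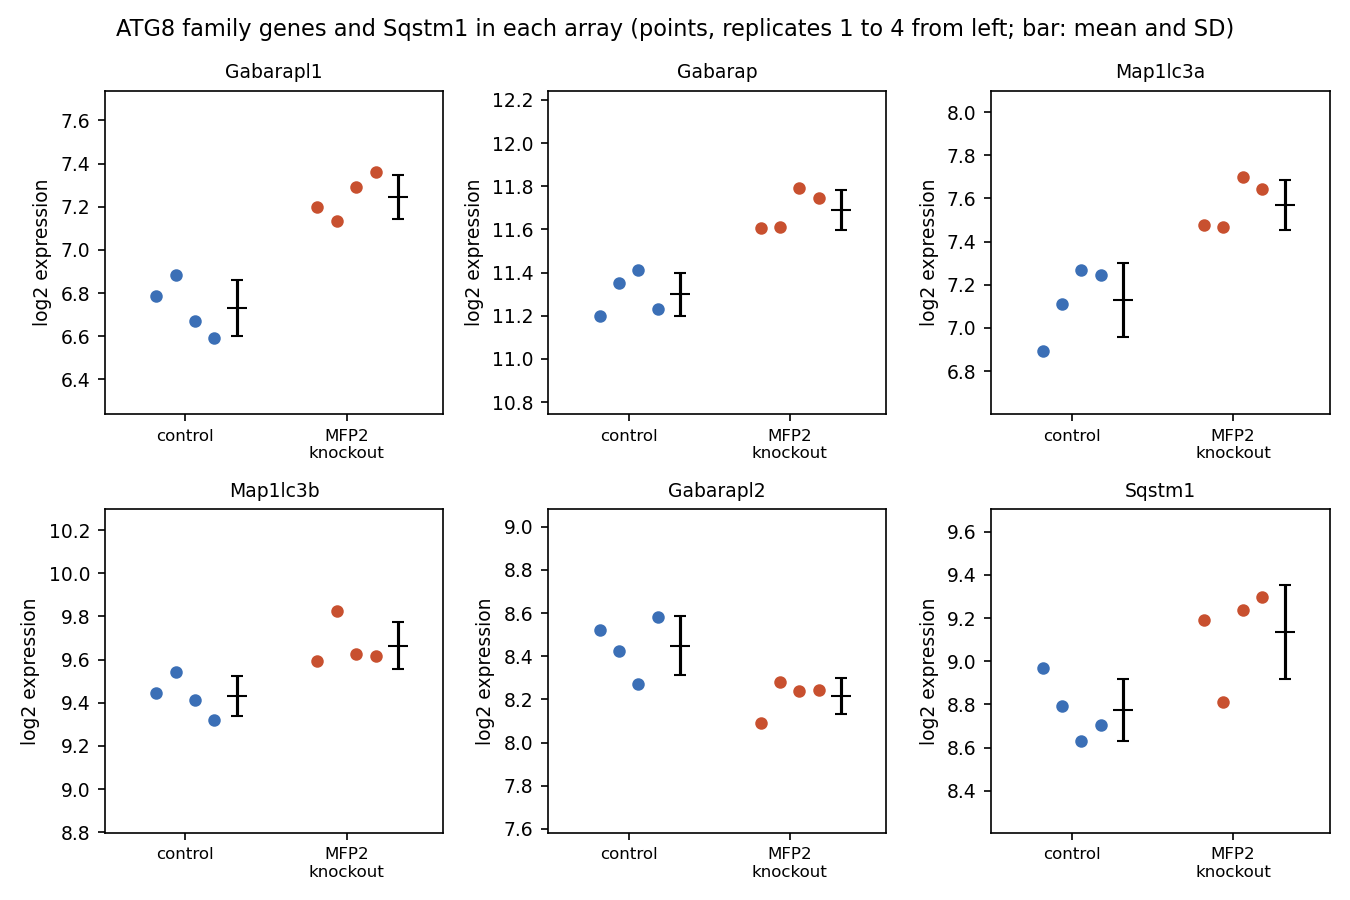
Log2 expression of the 5 ATG8 family genes and of Sqstm1 in each array, controls in blue and MFP2 knockouts in red, with replicates 1 to 4 from left to right and bars for the mean and SD of 4 arrays; each panel spans 1.5 log2 units. In the deposited values all 4 knockouts lie above all 4 controls for Gabarapl1, Map1lc3a, Map1lc3b and Gabarap (the last with its direction turned after quantile normalization), whereas the groups of Gabarapl2, which was not called, overlap at control 3, and knockout 2 of Sqstm1 lies among the controls.

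None of the 6 measured cargo receptor genes was called by limma or by a plain two-sample test, and 1 had an unadjusted p under 0.05. Sqstm1, which encodes p62, the receptor for ubiquitinated cargo that is itself degraded by autophagy, had values of 8.97, 8.79, 8.63 and 8.71 in controls and 9.19, 8.81, 9.24 and 9.30 in knockouts. Of the knockouts, 3 were above all controls, and knockout 2 lay among the controls. The change of 0.36 ± 0.12 (SE) had an adjusted p of 0.0850. Without knockout 2 it was 0.47 with an adjusted p of 0.0154, and without control 3 and knockout 2 it was 0.42 with an adjusted p of 0.0359. Knockout 2 was also the knockout with the highest Hsd17b4, and a link between Sqstm1 and Hsd17b4 was not tested.

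Nbr1, a receptor related to p62 that also acts in the removal of peroxisomes, was at 8.71, 8.65, 8.32 and 8.48 in controls and 8.47, 8.38, 8.31 and 8.35 in knockouts. The groups overlapped, and the change of -0.17 ± 0.10 (SE) had a 95% interval of -0.38 to 0.051. Tax1bp1 and Calcoco2, further receptors for ubiquitinated cargo, had changes of -0.14 and -0.011. The 2 probe sets of Calcoco2 were dim, with group means of 4.70 and 4.69 for the brighter. The mitophagy receptors Bnip3l and Fundc1 had changes of 0.020 and -0.042, and Fundc1 spread from 7.32 in knockout 2 to 8.40 in knockout 4. By their numbers, the brighter probe sets of Calcoco2 and Bnip3l fall away from the gene's chromosome. Their other probe sets changed by 0.048 and -0.015, neither called.

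Epg5, which tethers autophagosomes to late endosomes and lysosomes, had values of 7.43, 7.27, 7.35 and 7.39 in controls and 7.34, 7.25, 7.09 and 7.40 in knockouts. The groups overlapped and the gene was not called (change -0.089 ± 0.092, adjusted p = 0.675; unadjusted p = 0.353).

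Regulators that tie autophagy to nutrient supply were read beside the machinery. mTORC1 is the kinase complex that holds autophagy back when amino acids are plentiful, and AMPK is the kinase that favours it when energy is short. Of 33 measured genes of these 2 systems 6 were higher and 2 lower, 24.2% against the 9.55% of all genes, and the median log2 change of the 33 was 0.047. This list, like the others, was chosen with earlier results of these data known. Without control 3 and knockout 2 the counts were 5 and 2, and without control 1 as well 4 and 2. With dim genes left out they were 4 and 2.

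The sestrins, which restrain mTORC1, moved in opposite directions. Sesn1 was at 10.11, 10.14, 9.81 and 10.12 in controls and 9.17, 9.33, 8.94 and 9.07 in knockouts, lower in every knockout (change -0.92 ± 0.11, SE, adjusted p = 0.000441). Sesn2 was at 7.04, 6.82, 7.22 and 7.24 in controls and 7.69, 7.74, 8.06 and 7.93 in knockouts, higher in every knockout (0.78 ± 0.12, adjusted p = 0.00151). Sesn3 was not called, with a change of -0.078. Among AMPK subunits, the beta subunit gene Prkab1 fell from 10.17 ± 0.20 (SD) to 9.26 ± 0.21, a change of -0.91 ± 0.13 (SE, adjusted p = 0.000821). The gene of the catalytic subunit alpha 2, Prkaa2, rose by 0.48 at a dim level, from 5.03 ± 0.12 (SD) to 5.52 ± 0.18. The array medians were 6.03 to 6.15. Prkaa1, the gene of alpha 1, was not called (-0.14).

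At the lysosome, amino acid supply reaches mTORC1 through Rag GTPases held by the Ragulator complex. Fnip2, a partner of folliculin, which acts on these GTPases, was at 7.86, 7.89, 7.66 and 7.75 in controls and 8.55, 8.24, 8.48 and 8.35 in knockouts (change 0.61 ± 0.096, SE, adjusted p = 0.00172). The Rag genes Rragd and Rragc rose by 1.14 and 0.43, and Lamtor1, which anchors Ragulator to the lysosome, by 0.69. Rragd was at 4.75, 4.90, 5.49 and 4.89 in controls and 5.73, 5.93, 6.24 and 6.68 in knockouts, with control 3 the control nearest the knockouts. Prkaa2 missed the threshold without control 3 and knockout 2 (adjusted p = 0.0590). By the plain two-sample test Rragd, Lamtor1 and Prkaa2 were not called (adjusted p = 0.0831, 0.0871 and 0.0753). In limma without control 1, control 3 and knockout 2, Rragc and Prkaa2 were not called (0.125 and 0.197). Mtor itself (0.047) and Rptor, which brings substrates to it (-0.28, adjusted p = 0.188), were not called. Rragd, Rragc, Lamtor1 and Prkaa2 fell outside the rule for naming genes and were chosen after their values were seen. The uncalled Sesn3, Prkaa1, Mtor and Rptor also fell outside that rule.

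**Figure D4:**
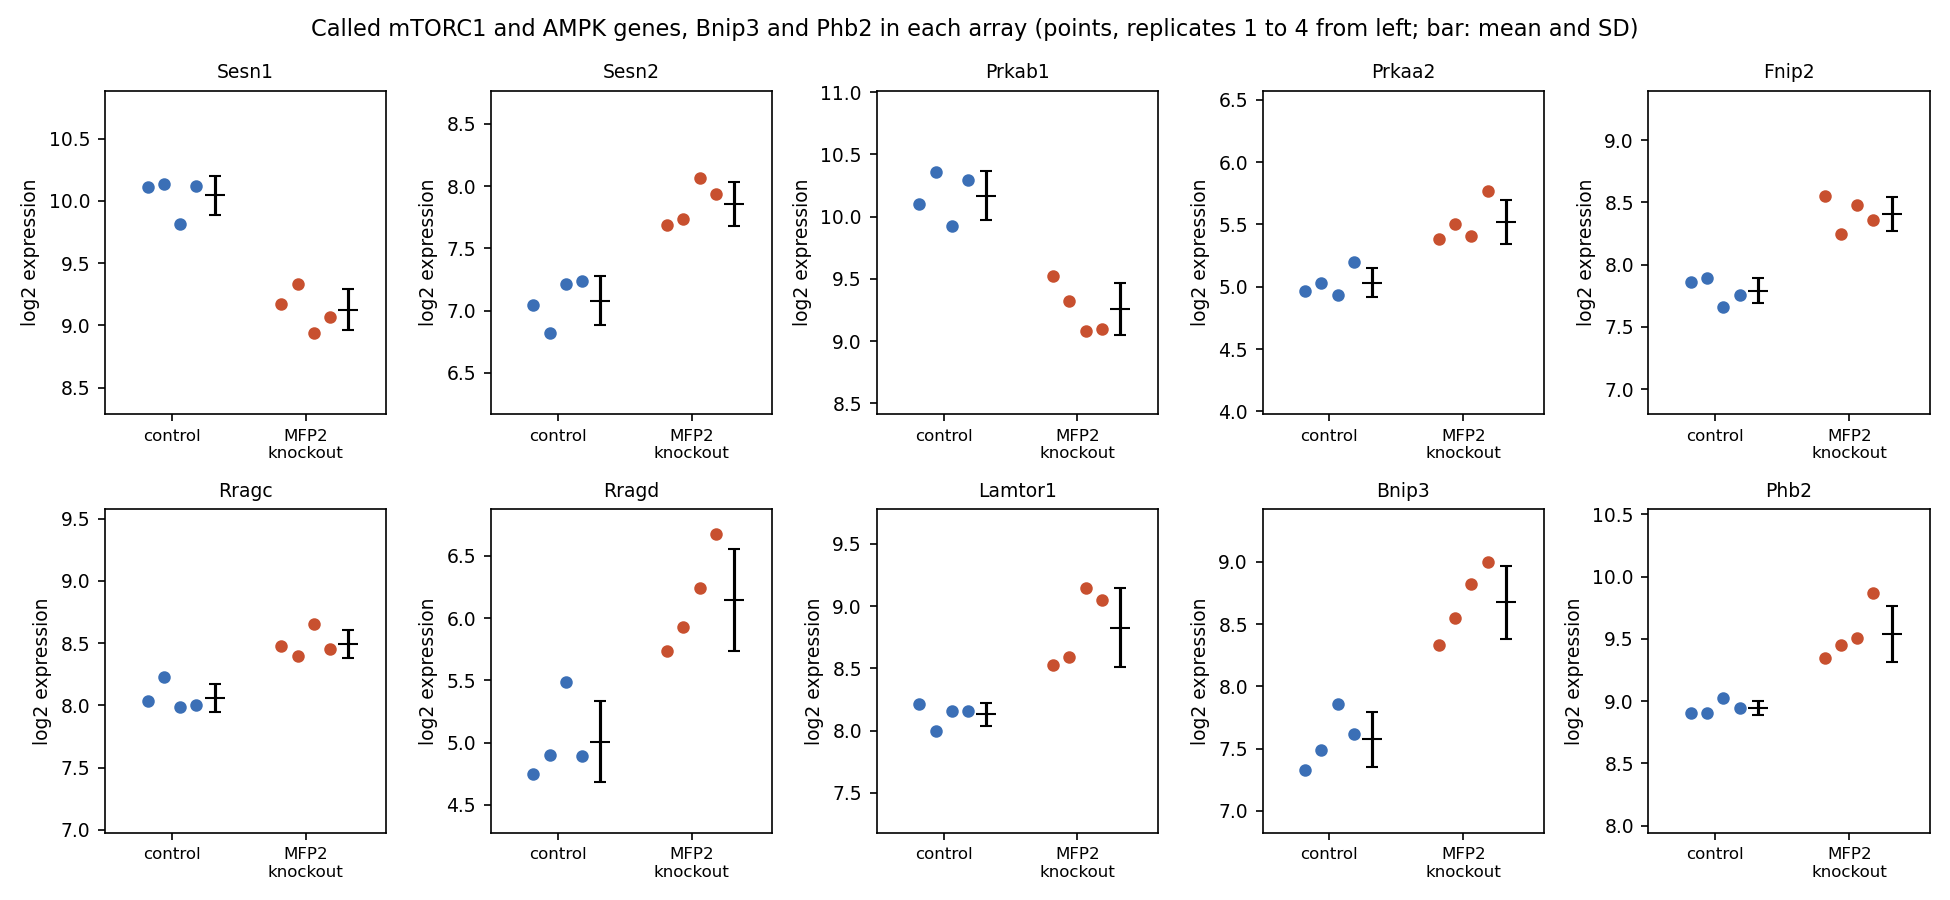
Log2 expression in each array of the 8 called genes of the mTORC1 and AMPK list and of Bnip3 and Phb2, controls in blue and MFP2 knockouts in red, with replicates 1 to 4 from left to right and bars for the mean and SD of 4 arrays; each panel spans 2.6 log2 units. Sesn1 and Prkab1 are lower in all 4 knockouts and the other 8 genes are higher in all 4.

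Other selective autophagy receptors and mitophagy regulators had 3 higher and 1 lower of 21 genes, 19.0% against 9.55% of all genes, but 3 higher and 4 lower after quantile normalization and 4 and 4 after cyclic loess. Bnip3, a mitophagy receptor of the outer mitochondrial membrane and the relative of Bnip3l, was at 7.33, 7.49, 7.86 and 7.62 in controls and 8.33, 8.55, 8.82 and 8.99 in knockouts (change 1.10 ± 0.15, SE, adjusted p = 0.000783). Phb2, an inner membrane protein that also binds LC3, rose by 0.60 (adjusted p = 0.00485), but was not called by the plain two-sample test (adjusted p = 0.0573). Tex264, a receptor for the endoplasmic reticulum, rose by 0.37, a call lost when any of controls 1, 3 and 4 and knockouts 2 and 3 was left out (adjusted p = 0.0658 to 0.103), and without control 3 and knockout 2 together (0.154). Ncoa4, the receptor for ferritin, fell by 0.39 (adjusted p = 0.0156). Without control 1, control 3 and knockout 2 the higher genes were 1 and the lower 0. By the plain two-sample test the higher genes were 1 and the lower 1.

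Of 18 cofactors of autophagosome formation 1 was higher and 1 lower, 11.1%, near the 9.55% of all genes. Bcl2, whose product binds Beclin 1 as well as blocking cell death, rose by 0.43 (adjusted p = 0.0136), and Vps37a, an ESCRT-I subunit, fell by 0.61 (adjusted p = 0.0124). Neither was called by a plain two-sample test (adjusted p = 0.0618 and 0.104). In limma without control 1, control 3 and knockout 2 neither passed (0.0690 and 0.123). Among 17 genes of membrane tethering and fusion on the way to the lysosome limma called 0, a plain two-sample test called 0 and 2 had an unadjusted p under 0.05. Those 2 were the SNARE gene Snap29, with a change of 0.32 (adjusted p = 0.0537), and Tgfbrap1, with -0.38 (adjusted p = 0.0518). Without knockout 1 their adjusted p was 0.0208 and 0.0188, and without control 3 that of Tgfbrap1 was 0.0499. Both were called without dim genes (0.0362 and 0.0345), after quantile normalization (0.0490 and 0.0431) and with array weights (0.0382 and 0.0487), and Snap29 also after cyclic loess (0.0287).

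Among 9 transcriptional regulators of the pathway limma and the plain two-sample test called 0, and 3 had an unadjusted p under 0.05. Foxo1, which drives several autophagy genes, had the lowest p, with a change of -0.34 ± 0.12 (SE, adjusted p = 0.0922), and without control 3 it was -0.43 with an adjusted p of 0.0306. Zkscan3, a repressor of autophagy genes, had a change of -0.40 ± 0.14 (adjusted p = 0.0964), and without knockout 1 one of -0.51 (adjusted p = 0.0254). Tfeb was at 7.57, 7.49, 7.60 and 7.40 in controls and 7.50, 7.32, 7.40 and 7.53 in knockouts, a change of -0.078 with a 95% interval of -0.27 to 0.11. Tfeb was chosen after its values were seen.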

How the data were processed

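Microarray values of 8 sorted microglia samples, 4 MFP2 knockout and 4 control, were used. The deposited values are log2 expression per probe set, summarised with RMA according to the submitters' processing notes. Neither the software nor the chip library is stated there, and that the log base is 2 rests on the values' range, 2.04 to 13.99. Per the labels' protocols, RNA was amplified from small amounts, which can add noise. Of 28874 probe sets, 21789 had 1 gene symbol by the platform annotation, 1621 had several and 5464 none; the last 2 kinds named no gene. A gene was represented by its probe set with the highest mean (19938 genes).

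R 4.3.3 and limma 3.58.1 (functions lmFit and eBayes) compared knockout with control in a two-sided test with no covariate or filter, and p-values were Benjamini-Hochberg adjusted over all genes, with 0.05 as the threshold. Means are ± SD and changes ± SE. The fit was tested on simulated data. Precision is limited by 4 arrays a group. Summed marker levels are the log2 of summed linear values. Promoters came from RefSeq tables of GRCm38.p6, and figures were drawn with matplotlib 3.10.9.

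Members and gene lists were chosen with earlier results of these data known. Per-array values were given for called genes, the ATG8 family, Sqstm1 and, in groups with no call, the 2 genes with the lowest p; Atg4b was added after its values were seen. From each wider list up to 4 called genes, or the 2 with the lowest p, were named. Genes of these lists named beyond that are marked where they appear. As alternatives, dim genes were left out, arrays were rescaled in 3 ways, a gene's probe sets were averaged, and the fit was run with a robust, intensity-dependent prior, array weights, a replicate block, a plain two-sample test, a stricter threshold and the omission of arrays. The second probe sets were added after seeing the data.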

Additional observations from a re-analysis of the deposited data

Results flagged for a closer look

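Of 118 groups of 4 arrays, from 59 genes, 3 held an array far from the other 3, by the gap to the nearest of them as a share of the group's range. Chance gives about 1 in 20 such groups. In Map1lc3b, knockout 2 was at 9.82, above the 9.59 to 9.63 of the other knockouts. In Atg14, knockout 4 was at 7.29, below the 7.59 to 7.65 of the other knockouts. In Sesn1, control 3 was at 9.81, below the 10.11 to 10.14 of the other controls.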

How the results depend on the processing

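The direction of every called autophagy gene held under all alternatives, except Gabarap under quantile normalization (-0.074). The count of 4 higher genes became 2 by the plain two-sample test, 1 at an adjusted p under 0.01, and 1 to 5 without a single array. Without control 1, control 3 and knockout 2 none of the 4 was called (adjusted p = 0.0508 to 0.205), and the count of 1 was Sqstm1 (0.0451). Among single arrays the fewest higher genes were left without control 1 or knockout 3. The count of 1 lower gene became 2 without dim genes, after quantile normalization, with the mean of probe sets, and without control 3 and knockout 2. It became 0 with centred arrays, by the plain test and at 0.01, and 0 to 2 without a single array. The 3 higher ATG8 genes became 1 at 0.01, 0 without control 1, control 3 and knockout 2, and 1 to 3 without a single array; lower ATG8 genes went from 0 to 1 with the mean of probe sets, and stayed at 0 without any single array. The 6 higher mTORC1 and AMPK genes became 3 by the plain test and 6 to 7 without a single array, and the 2 lower ones 2 to 3. Over all genes, 1073 higher and 832 lower became 377 and 271 by the plain test, 567 and 358 at 0.01, 649 and 494 without control 1, control 3 and knockout 2, and 753 to 1162 and 507 to 960 without a single array. Rescaling gave 1086 higher and 1149 lower (quantile), 1194 and 1054 (cyclic loess) and 1035 and 654 (centred), so quantile normalization turned the balance. The median change of the 40 genes lay between -0.095 and -0.012 without a single array. The cause of these differences was not tested.

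Whether the replicate numbers pair the arrays is not stated, and so few numbers cannot settle it. Deviations of same-numbered arrays correlated at -0.065 to 0.16, and 2 of 8 arrays correlated best with their own number. With the replicate block 3 autophagy genes were higher and 1 lower, with Atg4a (adjusted p = 0.0515) and Rb1cc1 (0.0563) no longer called and Atg4b called lower (0.0243). Of the 35 uncalled genes, 6 were called in at least 1 alternative and 16 changed sign in at least 1.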

Other observations

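Control 3 had the lowest value of the 4 controls in 19 of the 40 autophagy genes (47.5%), against 24.5% of all genes, and control 2 the highest in 18 (45%), against 27.5% of all genes. Among knockouts, knockout 2 was lowest in 13 of the 40 (32.5% against 27.3% of all genes) and knockout 4 highest in 14 (35% against 35.8%).

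A mean over the 8 arrays within 0.5 of that of Gabarap, a range chosen after its values were seen, was found for 135 genes. Of the 135, 45 were called higher and 33 lower in the deposited values. Over all 19938 genes 1073 (5.38%) were called higher and 832 (4.17%) lower, a far smaller share. The median log2 change of the 135 genes was -0.014, and 43 of them had a larger increase than Gabarap.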
